A study of Homo sapiens with 6 samples.

Results

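The MHC class I heavy chains *HLA-B*, *HLA-C*, *HLA-E*, *HLA-F* and *HLA-G*, their shared light chain *B2M* and the class I transactivator *NLRC5* were compared between MDA-MB-453 cells with and without *DUSP6* knockdown. These 7 genes were taken by symbol from a table of 22807 genes. The rule itself uses no measured value, but the genes were picked with earlier results of these libraries known. MDA-MB-453 is an established HER2+ breast cancer cell line, labelled wild type in all 6 libraries. In 3 libraries the cells had been transfected with *DUSP6* siRNA and in 3 with scrambled siRNA, both with lipofectamine RNAiMAX. The study describes 3 different siRNAs in each group, and the sources used here do not tie them to single libraries. The labels do not say whether the libraries came from separate cultures, so the p-values measure the spread between these libraries. DUSP6 is a phosphatase that removes phosphate from ERK kinases.

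A class I molecule is a heavy chain bound to beta-2-microglobulin, the product of *B2M*, and a short peptide from inside the cell. *HLA-B* and *HLA-C* encode classical, highly polymorphic chains that present peptides to cytotoxic T cells and are read by receptors of natural killer cells, whereas *HLA-E*, *HLA-F* and *HLA-G* encode non-classical chains of low polymorphism. *HLA-E* mainly presents leader peptides of other class I chains to natural killer cells, and *HLA-G* is best known from the placenta. Interferons raise class I transcription through STAT and IRF proteins, and NLRC5, which does not bind DNA by itself, acts on class I promoters together with the RFX, CREB/ATF and NF-Y proteins that sit there.

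The values were reads scaled by library size and library composition, on a linear scale. Total reads ranged from 45546981 to 85729785 per library, and 1 read was worth between 0.0121 and 0.0202. limma was run on log2(value + 1) of the 12862 genes whose mean value was 1 or more, and a gene was called at a Benjamini-Hochberg adjusted p under 0.05. Of these genes, 19.7% were called higher and 24.7% lower with *DUSP6* siRNA, 2.67% were called higher with a log2 fold change above 1, and the median log2 fold change was -0.01. *DUSP6* itself had values of 209, 110 and 114 with scrambled siRNA and of 39.4, 24.5 and 35.2 with *DUSP6* siRNA, so its groups did not overlap (log2 fold change -2.05, standard error (SE) 0.25, limma adjusted p = 3.09e-04). Of 8 markers of luminal HER2+ cells, all were in the table, 7 were lower and *EPCAM* was not called, and their summed value was 5298 to 6592 with scrambled siRNA and 3457 to 3800.4 with *DUSP6* siRNA. Among 13 leukocyte markers, 9 were in the table and 7 of these had a mean value under 1. *PTPRC*, which encodes the pan-leukocyte protein CD45, was at most at 0.0809. The summed value of the 9 was 8.36 to 11.0 with scrambled siRNA and 5.61 to 8.13 with *DUSP6* siRNA. Most of it came from *CD68* (means 5.00 and 4.53, not called) and *NCAM1* (means 3.53 and 0.978, called lower). All 6 markers of stroma and endothelium were in the table, and their summed value was 81.2 to 106 with scrambled siRNA and 162 to 193 with *DUSP6* siRNA, nearly all of it from *COL1A1*, while the other 5 markers each had a mean value under 1. The part of these marker differences in the results below was not tested. In bulk RNA, a change in the number of expressing cells and a change in RNA per cell cannot be told apart.

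For all 7 genes the lowest *DUSP6* siRNA library lay above the highest scrambled one, and *HLA-B* changed far more than *HLA-C*, its closest relative among them. Mean values rose 33.0-fold for *HLA-B*, 4.28-fold for *HLA-C*, 3.84-fold for *HLA-E*, 5.52-fold for *B2M* and 7.01-fold for *NLRC5*. These 5 genes had a scrambled siRNA mean of at least 1 and did not need the other group to pass the filter, and all 5 were called higher. *HLA-F* and *HLA-G* had scrambled siRNA means of 0.331 and 0.828, so they passed the filter only through the *DUSP6* siRNA libraries and had to differ. For comparison, every *DUSP6* siRNA library stood above every scrambled siRNA library for 26.7% of all genes tested, and the reverse held for 31.1%. A two-sided exact permutation test gave p = 0.1 for each of the 7 genes, the smallest p that 3 libraries against 3 allow. Ranked by the fold change of log2(value + 1) among the 12862 genes, from the largest increase, *HLA-B* was at 16, *HLA-F* at 32, *NLRC5* at 52, *B2M* at 61, *HLA-C* at 77, *HLA-E* at 91 and *HLA-G* at 158. Adding 1 lowers the place of *HLA-F* and *HLA-G* in this order. On the recovered reads edgeR put *HLA-F* (5.27) above *HLA-B* (5.07), and *HLA-G* (2.19) above *HLA-C* (2.13) and *HLA-E* (1.98).

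**Figure D1:**
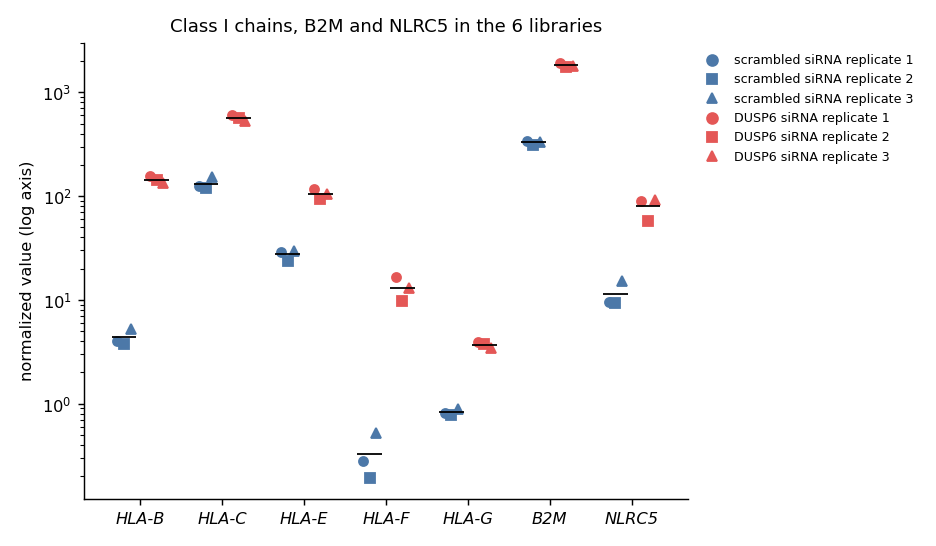
Normalized values of the 7 genes (log axis) in each of the 6 libraries, with 1 point per library, a marker shape per replicate number and a line at each group's mean. For every gene the 3 *DUSP6* siRNA points lie above the 3 scrambled siRNA points, and the gap is widest for *HLA-B* (means 4.35 and 144) and *HLA-F* (0.331 and 13.2).

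*HLA-B* (Entrez gene 3106) lies on the minus strand of chromosome 6 at chr6:31353875-31357179 of GRCh38.p14, with 8 exons in its main transcript. In replicates 1 to 3, its value was 4.03, 3.79 and 5.22 with scrambled siRNA and 157, 142 and 132 with *DUSP6* siRNA, and values are given in this order throughout. Even the lowest *DUSP6* siRNA library was 25.4-fold above the highest scrambled siRNA library. The mean rose from 4.35 ± 0.763 (SD, n = 3) to 144 ± 12.4 (SD, n = 3), and the log2 fold change was 4.76 (95% interval 4.48 to 5.05, limma adjusted p = 1.38e-07). The scrambled siRNA values rested on 271, 198 and 433 reads and the *DUSP6* siRNA values on 7760, 11594 and 8563 reads.

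*HLA-C* (Entrez gene 3107, chr6:31268749-31272092, minus strand) started from a much higher value. It stood at 124, 120 and 151 with scrambled siRNA and at 608, 560 and 524 with *DUSP6* siRNA, a lowest-to-highest gap of 3.47-fold. The mean rose from 132 ± 16.9 (SD, n = 3) to 564 ± 42.3 (SD, n = 3), and the log2 fold change was 2.09 (95% interval 1.84 to 2.35, limma adjusted p = 3.94e-06). This interval and that of *HLA-B* lie wholly apart. *HLA-E* (Entrez gene 3133, chr6:30489509-30494194, plus strand) had values of 29.1, 23.8 and 29.8 with scrambled siRNA and of 118, 94.0 and 106 with *DUSP6* siRNA. Its mean rose from 27.6 ± 3.28 (SD, n = 3) to 106 ± 12.1 (SD, n = 3), and the log2 fold change was 1.90 (95% interval 1.63 to 2.18, limma adjusted p = 9.80e-06), and the intervals of *HLA-C* and *HLA-E* overlapped.

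*HLA-F* (Entrez gene 3134, chr6:29723434-29738532, plus strand) was close to the floor without knockdown. Its value was 0.283, 0.192 and 0.518 with scrambled siRNA, from 19, 10 and 43 reads, and 16.5, 9.82 and 13.1 with *DUSP6* siRNA, from 818, 803 and 849 reads. The ratio of the means was 39.8, and the log2 fold change was 3.39 (SE 0.18, limma adjusted p = 3.94e-06) because adding 1 to each value shrinks the change of low genes. On the recovered reads, edgeR's quasi-likelihood test gave 5.27 (adjusted p = 1.60e-05). *HLA-G* (Entrez gene 3135, chr6:29826474-29831021, plus strand) had the lowest values of the chains with *DUSP6* siRNA. It was at 0.818, 0.786 and 0.880 with scrambled siRNA, from 55, 41 and 73 reads, and at 3.90, 3.78 and 3.45 with *DUSP6* siRNA, from 193, 309 and 223 reads. The ratio of the means was 4.48, the log2 fold change 1.36 (SE 0.10, limma adjusted p = 2.62e-05), and edgeR's test gave 2.19 (adjusted p = 3.81e-05). As both genes had to differ, their p-values are given as a description. Across all genes edgeR called 21.5% higher and 23.1% lower, and DESeq2 called 22.6% higher and 25.4% lower.

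Reads can be shared among these genes, which limits how finely the chains can be told apart. On the reference alleles, the coding sequences of *HLA-B* and *HLA-C* were 92.5% identical, and the other 9 pairs of heavy chains were 84.1% to 88.9% identical. The longest coding stretch that *HLA-B* and *HLA-C* share without a difference is 66 bases in exon 3, which encodes part of the peptide groove. It is printed here with the matching stretch of the other 3 chains, from the GRCh38 genome with GENCODE transcripts, in the direction of the gene, and the capitals mark bases that differ from *HLA-B*.
HLA-B (chr6:31356301-31356366, minus strand): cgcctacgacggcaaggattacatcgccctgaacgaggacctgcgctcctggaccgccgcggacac
HLA-C (chr6:31271207-31271272, minus strand): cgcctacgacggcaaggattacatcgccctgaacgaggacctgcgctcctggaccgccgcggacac
HLA-E (chr6:30490316-30490381, plus strand): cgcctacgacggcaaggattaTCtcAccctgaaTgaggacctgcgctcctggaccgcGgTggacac
HLA-F (chr6:29724249-29724314, plus strand): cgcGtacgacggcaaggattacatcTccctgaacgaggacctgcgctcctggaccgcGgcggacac
HLA-G (chr6:29828619-29828684, plus strand): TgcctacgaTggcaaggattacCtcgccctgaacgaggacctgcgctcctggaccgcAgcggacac
In this stretch *HLA-E* differed at 6 bases, *HLA-F* at 3 and *HLA-G* at 4. Over the whole transcripts, windows of 50 bases that also occur in another of these chains made up 2.22% of *HLA-B*, 3.75% of *HLA-C*, 4.04% of *HLA-E*, 1.68% of *HLA-F* and 5.28% of *HLA-G*. With windows of 100 bases the shares were 0% for *HLA-B*, *HLA-C* and *HLA-F*, 0.612% for *HLA-E* and 1.23% for *HLA-G*. The read length is not given in the sources used here, the treatment of reads with several matches under the default settings of the package was not examined, and the alleles that MDA-MB-453 carries were not compared with the reference, so the value of each chain is uncertain to that extent. Dividing reads among the 5 chains does not change their sum, although reads dropped or shared with other class I genes would. It was 158, 149 and 188 with scrambled siRNA and 904, 809 and 778 with *DUSP6* siRNA, with means of 165 ± 20.3 (SD, n = 3) and 830 ± 65.3 (SD, n = 3) and a log2 fold change of 2.33 (SE 0.11, limma adjusted p = 2.13e-06). With the rows of the class I pseudogenes *HLA-H*, *HLA-J* and *HLA-L* added to the sum, it was 2.32. Of these pseudogenes *HLA-H* passed the filter and rose by 1.97 on the log2 scale.

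Other annotated genes also lie across the members. The microRNA gene *MIR6891* lies inside *HLA-B* and held 0 reads in each scrambled siRNA library and 1, 0 and 3 reads in the *DUSP6* siRNA libraries. The antisense gene *HLA-F-AS1* overlaps *HLA-F* and held 1, 2 and 5 reads with scrambled siRNA and 8, 9 and 16 with *DUSP6* siRNA, far fewer than *HLA-F*. Counting at the package's default settings does not use the strand, so it cannot tell from which gene a read of such an overlap came. Whether such reads were counted or left out was not examined, so the counts of *HLA-F* and *HLA-F-AS1* may miss the overlapping part. By position, *RPL23AP1* also overlaps *HLA-F*, *HCG4P8* overlaps *HLA-G*, *MIR10393* overlaps *B2M* and *CFAP69P1* overlaps *NLRC5*, with the same limit.

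To compare levels between genes, values were divided by transcript length in kb. With scrambled siRNA the order from the highest level per kb was *B2M* (350 ± 15.3), *HLA-C* (85.5 ± 10.9), *HLA-E* (10.8 ± 1.29), *HLA-B* (2.83 ± 0.497), *NLRC5* (1.68 ± 0.471), *HLA-G* (0.628 ± 0.0362) and *HLA-F* (0.224 ± 0.114; SD, n = 3 throughout). No neighbors in this order overlapped in their 3 libraries. With *DUSP6* siRNA it was *B2M* (1932 ± 72.6), *HLA-C* (366 ± 27.4), *HLA-B* (93.5 ± 8.08), *HLA-E* (41.5 ± 4.73), *NLRC5* (11.8 ± 2.81), *HLA-F* (8.89 ± 2.27) and *HLA-G* (2.81 ± 0.179). *HLA-B* thus stood above *HLA-E* and *HLA-F* above *HLA-G*, the reverse of the order with scrambled siRNA. *HLA-F* and *HLA-G* passed the filter only through the *DUSP6* siRNA libraries, so their places are given as a description. The libraries of *NLRC5* (8.53 to 13.6) and *HLA-F* (6.63 to 11.2) overlapped, and those of the other neighbors did not.

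Within the summed level per kb of the 5 chains, the share of *HLA-B* rose from 2.82% ± 0.136 (SD, n = 3) to 18.2% ± 0.219 (SD, n = 3). It was 2.75%, 2.73% and 2.98% in the scrambled siRNA libraries and 18.3%, 18.4% and 18.0% in the *DUSP6* siRNA libraries, close together within each group. The share of *HLA-C* was 85.5% ± 0.908 with scrambled siRNA and 71.4% ± 0.857 with *DUSP6* siRNA, so it remained the main chain. *HLA-E* went from 10.9% ± 0.957 to 8.11% ± 0.676 and *HLA-F* from 0.217% ± 0.0830 to 1.73% ± 0.359. *HLA-G* made up 0.631% ± 0.0408 and 0.549% ± 0.0201. The groups did not overlap for any of the 5 shares (two-sided exact permutation test, p = 0.1 each, the smallest p possible). These shares add up to 100%, so they are not independent of each other. The shares of *HLA-F* and *HLA-G*, which passed the filter only through the *DUSP6* siRNA libraries, are given as a description.

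**Figure D2:**
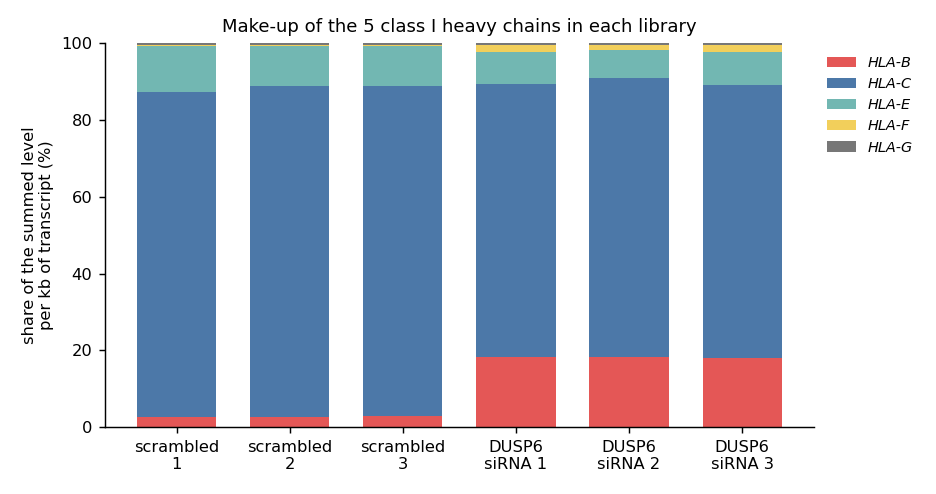
Stacked bars give the share (%) of each of the 5 heavy chains in their summed level per kb of transcript, with 1 bar for each library. *HLA-C* is the largest part of every bar, at a mean of 85.5% with scrambled siRNA and 71.4% with *DUSP6* siRNA, while *HLA-B* grows from 2.82% to 18.2%.

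*B2M* (Entrez gene 567, chr15:44711517-44718145, plus strand) was the most abundant of the 7 genes. It stood at 340, 313 and 336 with scrambled siRNA and at 1898, 1765 and 1802 with *DUSP6* siRNA. The lowest *DUSP6* siRNA library was 5.18-fold above the highest scrambled siRNA library, and the log2 fold change was 2.46 (95% interval 2.26 to 2.67, limma adjusted p = 4.29e-07). Per kb, *B2M* was 3.53 ± 0.358 times (SD, n = 3) the summed heavy chains with scrambled siRNA and 3.78 ± 0.194 times (SD, n = 3) with *DUSP6* siRNA. In single libraries this ratio was 3.78, 3.68 and 3.12 with scrambled siRNA and 3.61, 3.73 and 3.99 with *DUSP6* siRNA. The groups overlapped, and no difference was detected between them (two-sided exact permutation test, p = 0.5).

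Against each single chain, the groups of the *B2M* ratio did not overlap, although 3 libraries against 3 cannot give p under 0.1. A total of 9 ratios between members was compared within libraries, on the log2 scale and without an added constant. The ratio of *B2M* to *HLA-B* fell by 2.59 and that to *HLA-F* fell by 2.94, while *B2M* gained 0.36 on *HLA-C*, 0.52 on *HLA-E* and 0.30 on *HLA-G*. *HLA-B* gained 2.95 on *HLA-C*, 3.12 on *HLA-E* and 2.89 on *HLA-G*. In these 8 ratios the groups did not overlap (two-sided exact permutation test, p = 0.1, adjusted p = 0.113 over the 9 ratios). All 9 ratios reuse *B2M* or *HLA-B*, so they are not independent. *HLA-F* and *HLA-G* passed the filter only through the *DUSP6* siRNA libraries, so the ratios with them are given as a description. The ratio of *HLA-B* to *HLA-F* differed by -0.35 with overlapping groups (exact permutation p = 0.5), so no difference in size was detected without the added constant. With 1 added to each value, the log2 fold changes were 4.76 for *HLA-B* and 3.39 for *HLA-F*.

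**Figure D3:**
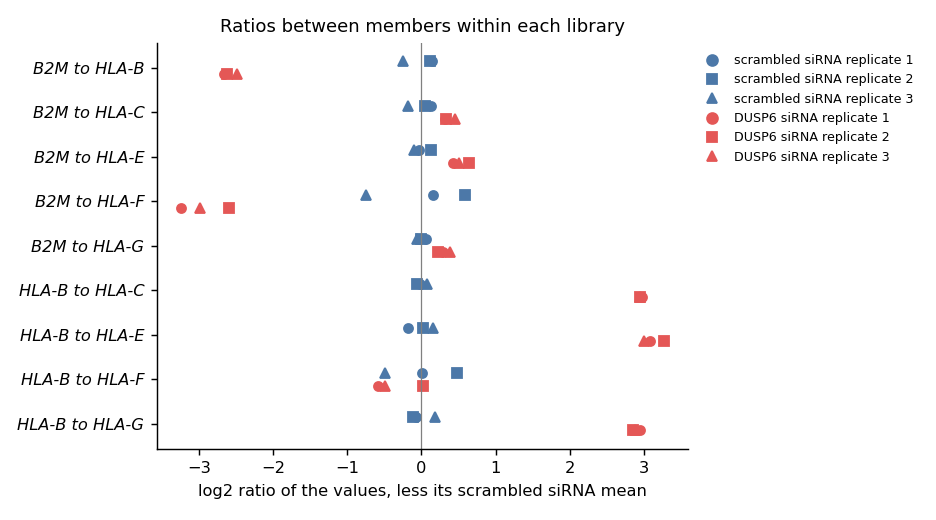
Log2 ratios of the values of 2 members within each library, less the scrambled siRNA mean of that ratio, with 1 point per library. The *DUSP6* siRNA points lie near -2.59 for *B2M* to *HLA-B* and near 2.95 for *HLA-B* to *HLA-C*, apart from the scrambled siRNA points, and they overlap for *HLA-B* to *HLA-F*.

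*B2M* is also the gene to which the study's quantitative RT-PCR values were normalized. Its primers, from the study's supplementary primer list, are printed because they show which part of the transcript that assay reads.
B2M forward primer: gatgagtatgcctgccgtgt
B2M reverse primer: ctgcttacatgtctcgatccca
On the main transcript both match exactly, the forward primer in exon 2 (chr15:44715641-44715660) and the reverse primer across exons 2 and 3, which gives a product of 79 bases. *B2M* was therefore set against 10 other genes often used as references. Of these, 1 was called higher (*GUSB*, log2 fold change 0.98), 6 were called lower (*HPRT1*, -1.30, *ACTB*, -0.84, *GAPDH*, -0.73, *PPIA*, -0.63, *TBP*, -0.51, and *SDHA*, -0.51) and *RPLP0*, *YWHAZ* and *TFRC* were not called. Among all genes tested, 19.7% were called higher and 24.7% lower. The log2 ratio of *B2M* to each of the 10 was higher with *DUSP6* siRNA, by 1.47 (*GUSB*) to 3.81 (*HPRT1*) with a median of 2.99, and the groups did not overlap for any of them (two-sided exact permutation test, p = 0.1 each, the smallest p possible). All 10 ratios share *B2M*, so they are not independent of each other. They restate the rise of *B2M* itself (log2 fold change 2.46), because no reference gene rose by more than 0.98. Measured against *B2M*, the log2 level of *DUSP6* fell by 4.55. Against the 10 other genes it differed by -0.74 (*HPRT1*) to -3.09 (*GUSB*), with a median of -1.57. Whether *B2M* changed in the samples of the study's own quantitative RT-PCR was not examined, so those values are not judged here.

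**Figure D4:**
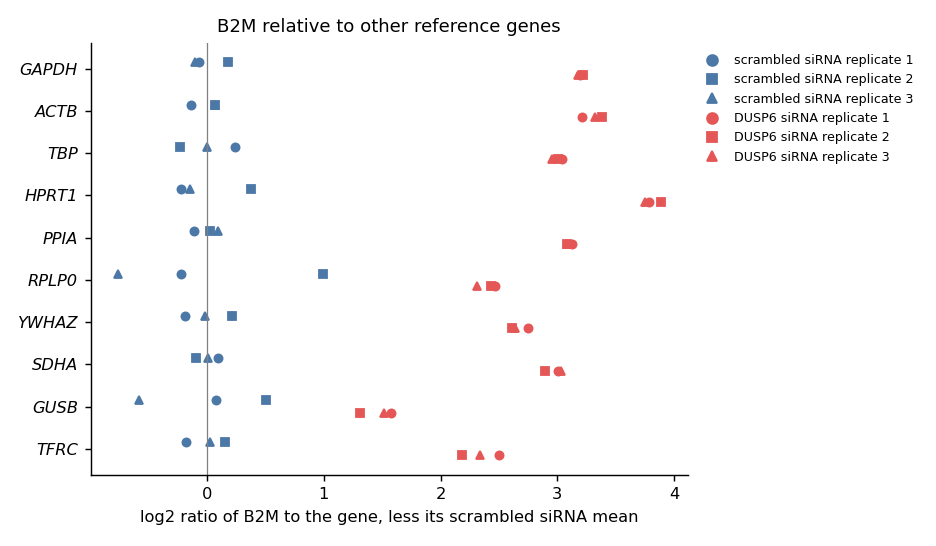
Log2 ratio of *B2M* to each of 10 reference genes in each library, less the scrambled siRNA mean of that ratio, with 1 point per library. All *DUSP6* siRNA points lie to the right of the scrambled siRNA points, with mean differences from 1.47 for *GUSB* to 3.81 for *HPRT1*.

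*NLRC5* (Entrez gene 84166, chr16:56989557-57083520, plus strand, 49 exons in its main transcript) rose with the chains. Its value was 9.64, 9.43 and 15.1 with scrambled siRNA and 89.0, 57.8 and 92.4 with *DUSP6* siRNA. *DUSP6* siRNA replicate 2 was the lowest of its group and still 3.84-fold above the highest scrambled siRNA library. The mean rose from 11.4 ± 3.19 (SD, n = 3) to 79.7 ± 19.0 (SD, n = 3), and the log2 fold change was 2.71 (95% interval 2.22 to 3.19, limma adjusted p = 3.19e-05). Among the *DUSP6* siRNA libraries, *HLA-E*, *HLA-F* and *B2M* were also lowest in replicate 2, whereas *HLA-B*, *HLA-C* and *HLA-G* were lowest in replicate 3.

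The transcription factors that act at class I promoters did not move as one. Of 6 factors that interferon or NF-kappaB signaling activates, 4 were higher, 1 was lower and 1 was not called, with a median log2 fold change of 1.05. For comparison, 19.7% of all genes tested were called higher and 24.7% lower. *IRF9*, which joins STAT proteins in the complex formed after type I interferon, was at 12.0, 13.3 and 26.5 with scrambled siRNA and at 220, 222 and 225 with *DUSP6* siRNA (log2 fold change 3.70). *IRF1*, which binds interferon response elements, rose by 2.24, *STAT2* by 1.51 and *NFKB1*, an NF-kappaB subunit, by 0.59 on the log2 scale. *IRF2*, which can repress genes that IRF1 activates, fell by 0.92, and *RELA* was not called (-0.18). The 8 subunits and factors with which NLRC5 works at the promoter had a median log2 fold change of -0.10. Of these, 1 was higher (*RFXANK*, 0.32), 2 were lower (*NFYC*, -0.86, and *RFX5*, -0.48) and 5 were not called. *RFX5* was at 88.7, 115 and 102 with scrambled siRNA and at 76.4, 70.7 and 71.1 with *DUSP6* siRNA, without overlap between the groups.

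The sequences on which these factors act were read from the promoters of the members. RefSeq promoter sequences on GRCh38.p14 were at hand for *HLA-B*, *HLA-C*, *HLA-F*, *HLA-G* and *B2M*. The stretch from position -200 to -41, counted from the transcription start, is shown because the known class I control elements lie in it. It is given in the direction of the gene, and the capitals mark matches on either strand to the motifs searched.
HLA-B (chr6:31357220-31357379, minus strand): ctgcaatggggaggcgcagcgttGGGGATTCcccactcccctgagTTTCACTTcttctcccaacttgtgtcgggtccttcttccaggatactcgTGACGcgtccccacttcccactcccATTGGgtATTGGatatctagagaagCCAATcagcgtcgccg
HLA-C (chr6:31272133-31272292, minus strand): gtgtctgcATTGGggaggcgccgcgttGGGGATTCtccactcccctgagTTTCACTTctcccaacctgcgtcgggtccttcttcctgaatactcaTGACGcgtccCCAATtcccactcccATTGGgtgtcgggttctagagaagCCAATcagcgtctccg
HLA-F (chr6:29723234-29723393, plus strand): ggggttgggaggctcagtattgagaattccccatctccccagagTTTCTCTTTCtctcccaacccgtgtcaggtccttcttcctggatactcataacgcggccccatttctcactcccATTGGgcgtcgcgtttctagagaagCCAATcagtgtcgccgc
HLA-G (chr6:29827625-29827784, plus strand): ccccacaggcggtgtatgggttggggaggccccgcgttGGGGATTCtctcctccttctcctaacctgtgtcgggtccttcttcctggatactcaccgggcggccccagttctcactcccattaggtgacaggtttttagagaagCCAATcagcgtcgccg
B2M (chr15:44711317-44711476, plus strand): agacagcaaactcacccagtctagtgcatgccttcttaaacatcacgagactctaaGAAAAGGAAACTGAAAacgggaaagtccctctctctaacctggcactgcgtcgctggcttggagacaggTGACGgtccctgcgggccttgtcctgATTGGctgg
The motifs were searched on both strands over 250 bases before the start, and their letters were chosen with these promoters in view, so that no test was made. The interferon response element was searched as GAAA followed, after 2 bases of any kind, by another GAAA. It was found in *HLA-F* (-156 to -147, minus strand) and in *B2M*, where 2 matches overlap between -144 and -129, and in 3.02% of 35116 RefSeq starts. The related element AAGTGAAA, read here from the other strand as TTTCACTT, was found in *HLA-B* (-155 to -148) and *HLA-C* (-151 to -144) and in 1.37% of all starts. The kappa B element GGGGATTC was found in *HLA-B*, *HLA-C* and *HLA-G* and in 0.772% of all starts. TGACG, a core bound by CREB/ATF proteins, was found in *HLA-B*, *HLA-C* and *B2M* and in 21.2% of all starts, and CCAAT, the box bound by NF-Y, in all 5 promoters and in 32% of all starts. *HLA-B* and *HLA-C*, which held the same motifs in the same order from the kappa B element to TGACG, rose by 4.76 and 2.09 on the log2 scale. *HLA-G* held neither interferon motif nor TGACG in this window.

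Genes that make and load class I peptides mostly rose as well. Of 9 genes for peptide transport, trimming and loading, 6 were higher and 0 lower, with a median log2 fold change of 0.83. Over all genes tested, 19.7% were called higher and 24.7% lower. *TAP1*, a subunit of the peptide transporter of the endoplasmic reticulum, was at 6.78, 5.65 and 8.98 with scrambled siRNA and at 77.4, 59.0 and 78.5 with *DUSP6* siRNA, which was 3.17 on the log2 scale (limma adjusted p = 3.94e-06). Its partner *TAP2* rose by 2.72, and *ERAP2*, a peptidase that trims peptides in the same compartment, rose by 2.49. *TAPBP*, which encodes tapasin, the bridge between the transporter and the heavy chain, rose by 0.91. The general chaperones of the endoplasmic reticulum were not called, with log2 fold changes of -0.21 for *CALR*, 0.14 for *CANX* and 0.11 for *PDIA3*.

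All 5 genes of the immunoproteasome and its activator were higher, with a median log2 fold change of 1.26. *PSMB9* among them had to differ, as explained below, and 19.7% of all genes tested were called higher. *PSMB8*, a catalytic subunit that replaces a constitutive one after interferon, was at 1.89, 1.26 and 1.61 with scrambled siRNA and at 25.1, 16.2 and 22.9 with *DUSP6* siRNA, which was 3.10 on the log2 scale (limma adjusted p = 4.88e-06). The second such subunit, *PSMB9*, had values of 0.298, 0.0958 and 0.133 with scrambled siRNA and of 4.75, 3.74 and 4.94 with *DUSP6* siRNA. As for *HLA-F* and *HLA-G*, its scrambled siRNA mean was under 1, so it had to differ. *PSMB10* rose by 1.26, and the activator subunits *PSME1* and *PSME2* rose by 0.76 and 0.77 on the log2 scale. In *DUSP6* siRNA replicate 2, *TAP1*, *TAP2*, *PSMB8*, *PSMB9* and *PSMB10* were lowest of their group, as was *NLRC5*. So were *DUSP6* and the reference genes *GAPDH*, *ACTB*, *TBP*, *HPRT1*, *PPIA* and *RPLP0*, but not *YWHAZ*, *SDHA*, *GUSB* and *TFRC*. The share of all genes that were lowest in this library was not counted.

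**Figure D5:**
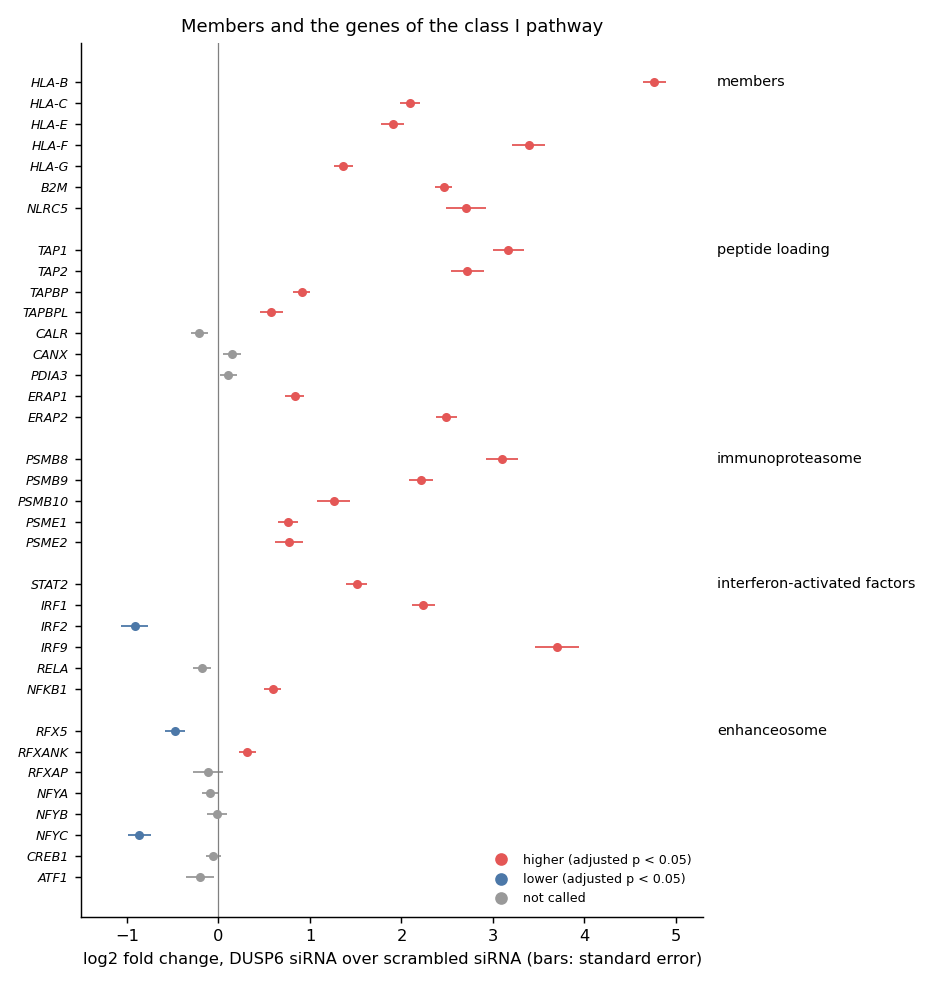
Log2 fold changes with *DUSP6* siRNA over scrambled siRNA for the 7 members and the genes of 4 class I pathway lists, with bars for the standard error and colors for the limma call at an adjusted p under 0.05. Median log2 fold changes were 0.83 for peptide loading, 1.26 for the immunoproteasome, 1.05 for the interferon-activated factors and -0.10 for the enhanceosome, the promoter-bound partners of NLRC5.

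MHC class II genes, which present peptides from outside the cell and are normally expressed by professional antigen-presenting cells, mostly had low values in both groups, and some were higher with *DUSP6* siRNA. Of 12 genes listed, 11 were in the table and 9 of these had a mean value under 1. *HLA-DRA*, a chain of the main class II molecule, was at 0 in all scrambled siRNA libraries and at most at 0.0404 with *DUSP6* siRNA. *CIITA*, the class II transactivator and a relative of *NLRC5*, was at 0.312, 0.115 and 0.434 with scrambled siRNA and at 0.364, 0.379 and 0.294 with *DUSP6* siRNA, with overlapping groups. Both class II genes tested were higher, *HLA-DMA* by 0.76 and *HLA-DMB* by 0.68 on the log2 scale, and both encode chains of the peptide editor HLA-DM. *HLA-DMB* had a scrambled siRNA mean under 1 and had to differ. Of all genes tested, 19.7% were called higher. *HLA-DMA* was at 3.73, 3.91 and 3.57 with scrambled siRNA and at 6.98, 6.80 and 7.28 with *DUSP6* siRNA. Below the filter and therefore not tested, *HLA-DOB* was at 0.164, 0.172 and 0.0844 with scrambled siRNA and at 0.607, 0.465 and 0.664 with *DUSP6* siRNA. *HLA-DQB1*, also not tested, was at 0.655, 0.824 and 0.506 with scrambled siRNA and at 1.37, 1.37 and 0.973 with *DUSP6* siRNA. The groups did not overlap for either gene. The summed class II value was 5.09 to 5.96 with scrambled siRNA and 10.7 to 11.0 with *DUSP6* siRNA. Most of this sum came from *HLA-DMA* in both groups (means 3.74 and 7.02), and most of the rest from *HLA-DMB* and *HLA-DQB1*.

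For each member the tested genes with the closest pattern were taken by the root mean square difference of log2(value + 1), centered on the scrambled siRNA mean, over the 6 libraries. The closest to *HLA-B* were *CCL5* (0.277), *CMPK2* (0.289) and *ISG15* (0.313). The closest to *HLA-C* were the long non-coding RNA *BISPR* (0.0722) and the pseudogene *HLA-H* (0.0947), which may share reads with it. *HLA-F* was closest to *IFIH1* (0.155), *PARP14* (0.162) and *TAP1* (0.203), and *NLRC5* to *IRF7* (0.113), *PARP10* (0.162) and *HELZ2* (0.165). *B2M* was closest to *SIK1B* (0.127), *ERAP2* (0.128) and *ADAP1* (0.130), and *HLA-E* to *SIK1* (0.0902), *CPXM1* (0.105) and *NR4A2* (0.111). *SIK1* and *SIK1B* are near-identical copies, so the values of both are uncertain. *HLA-G* was closest to *LIX1L* (0.0766), *ST3GAL2* (0.0853) and *SEC31B* (0.10). No gene stood among the closest 3 of more than 1 member. Adding 1 shrinks the change of low genes, so a close pattern here does not mean an equal fold. *CPXM1* went from a mean of 0.0492 to 2.96 and *ADAP1* from 0.291 to 7.04 with *DUSP6* siRNA. With scrambled siRNA means under 1, *CCL5*, *CMPK2*, *SIK1*, *CPXM1*, *ADAP1* and *ST3GAL2* passed the filter only through the *DUSP6* siRNA libraries.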

How the data were processed

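RNA of 6 libraries was sequenced with a stranded mRNA kit. The authors aligned reads to hg38 with Rsubread 2.0.0 and assigned them to RefSeq genes at default settings. They deposited 1 normalized signal value per gene and library. The labels' processing notes name bcl2fastq and edgeR. Within a library all values were multiples of the value of 1 read (100% of values, tolerance 1e-04), and these units held TMM scaling, so depth and composition were already adjusted for.

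Values were taken as log2(value + 1), and genes with a mean of at least 1 were tested with limma 3.58.1 (R 4.3.3, eBayes with a trend). edgeR 4.0.16 and DESeq2 1.42.0 on the recovered reads were alternatives. The code was tested on simulated data. Single ratios were compared with exact permutation tests. The members and gene lists were chosen with earlier results of these data known. Named were all members, *DUSP6* and, per list, up to 4 called genes with the largest change each way. Other list genes were named after their values were seen. A few list genes are not reported here. Lengths came from GENCODE v44 MANE transcripts, positions and promoters from RefSeq. Alternatives were another pseudocount, filter, scaling, tool, a block, no trend, each library left out, and each reference gene.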

Additional observations from a re-analysis of the deposited data

How the results depend on the processing

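All 7 member fold changes, that of *DUSP6* and that of the summed chains kept their direction and their call in every alternative that gave a value. Over the planned settings other than leaving out a library, log2 fold changes ranged from 4.76 to 5.07 for *HLA-B*, 2.09 to 2.30 for *HLA-C*, 1.90 to 1.98 for *HLA-E*, 3.34 to 5.29 for *HLA-F*, 1.24 to 2.19 for *HLA-G*, 2.46 to 2.77 for *B2M* and 2.70 to 2.84 for *NLRC5*. *HLA-F* and *HLA-G* gave no value at a mean of at least 10. Leaving out each library in turn gave 4.69 to 4.88 for *HLA-B* and 2.59 to 2.92 for *NLRC5*. The number of genes called higher was 2540, it was 1639 at a mean of at least 10, where fewer genes are tested, and it ranged from 1574 (without *DUSP6* siRNA replicate 2) to 3183 over the libraries left out. The replicate numbers did not pair the libraries (correlations of same-numbered libraries 0.01, 0.09 and -0.08). With the replicate number as a block, *HLA-B* stayed at 4.76, and 2495 genes were higher and 3096 lower. The ratio of *B2M* to *GAPDH* differed by 3.19, and against other references it differed by 3.00 (*TBP*), 3.81 (*HPRT1*), 2.40 (*RPLP0*), 2.66 (*YWHAZ*), 2.98 (*SDHA*), 1.47 (*GUSB*) and 2.34 (*TFRC*), as the references moved themselves.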

Other observations

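Genes with a class I fold that do not belong to the 5 chains gave a mixed picture. Of 18 listed, 13 were in the table and 9 were tested. Of these 9, 3 were higher, 1 was lower and 5 were not called, with a median log2 fold change of 0.16. Over all genes tested, 19.7% were called higher and 24.7% lower. The 3 higher genes all encode ligands of the natural killer receptor NKG2D. *RAET1L* was at 0.536, 0.498 and 0.627 with scrambled siRNA and at 5.40, 3.49 and 5.41 with *DUSP6* siRNA, and with a scrambled siRNA mean under 1 it had to differ. *ULBP2* rose by 1.28 (limma adjusted p = 9.15e-05) and *ULBP1* by 0.73 (limma adjusted p = 1.81e-03). *MICA*, another NKG2D ligand, had a log2 fold change of 0.03 and *MICB* of 0.16, and neither was called. *AZGP1*, which encodes a secreted protein with a class I fold, was at 425, 583 and 388 with scrambled siRNA and at 148, 120 and 138 with *DUSP6* siRNA, and fell by 1.76 on the log2 scale (limma adjusted p = 4.91e-05).

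Among 10 relatives of *NLRC5* in the NLR family, 5 were tested, 2 were higher and 3 were not called, with a median log2 fold change of 0.27. The higher ones were *NLRX1* (0.71), whose scrambled siRNA mean was under 1, and *NAIP* (0.53), against 2.71 for *NLRC5*. Of all genes tested, 19.7% were called higher and 24.7% lower. *HCP5*, a long non-coding RNA gene of the class I region chosen after its values were seen, was at 0.402, 0.153 and 0.313 with scrambled siRNA and at 9.10, 9.02 and 7.49 with *DUSP6* siRNA.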
